A study of Homo sapiens with 10 samples.

Results

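In MCF10A cells carrying the G12V HRas oncogene, 53 genes that MCF10A cells transcribed had almost no reads left. They were chosen from 26256 genes of the count table as those with at least 100 reads in each of both MCF10A libraries and at most 10 reads in each of both G12V libraries. In all, 57 genes passed these limits, and 4 of them (ESRP1, KRT14, LAD1 and TP63) were left out because they are among the genes and families set aside by symbol. Since the reads of these 4 libraries chose the genes, their fall from MCF10A to G12V cells is described below and not tested. Of the 53 genes, 46 encode proteins and 7 are non-coding RNAs or a pseudogene.

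MCF10A cells come from human breast epithelium and grow without limit, but do not behave as cancer cells. G12V cells are MCF10A cells into which HRas with the G12V change was brought by a lentivirus together with a GFP vector, followed by selection in hygromycin, and 2 libraries of each were made. In a separate experiment parental MCF10A cells received 10 µM Nutlin-3a, a small molecule that frees p53 from MDM2, or the vehicle DMSO for 4 h, with 3 libraries of each. All cells grew in medium with EGF, insulin, hydrocortisone, cholera toxin and horse serum, and every library was made from poly(A)-selected RNA and called a biological replica. The number of clones behind the G12V cells is not given in the sources used here.

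Library totals were 21538593 to 23683975 reads in the MCF10A and G12V cells and 15453226 to 17378734 in the Nutlin-3a experiment. HRAS had 1598 and 1496 reads in MCF10A and 14753 and 11542 in G12V cells. Of 6 epithelial markers, EPCAM, CDH1, KRT5 and KRT14 were differentially expressed (DE) and lower in G12V cells, while KRT8 and KRT18 were not DE. A gene is called DE here where edgeR's quasi-likelihood test gave an adjusted p under 0.05 with a log2 fold change beyond 0.5 in either direction. The summed level of the 6 markers was 4902 and 5905 CPM (reads scaled to the library size) in MCF10A and 1361 and 1661 CPM in G12V cells. KRT5 made up most of it, with a mean of 4195 CPM in MCF10A and 1078 CPM in G12V cells. Of 7 fibroblast markers 4 were tested, and 1 (LUM, with 1, 0, 28 and 27 reads) was DE and higher in G12V cells. Of 4 leukocyte markers 2 were tested, and 1 (CD68) was DE and higher. Of 5 endothelial markers 3 were tested, and none was DE. COL3A1 had 0 reads in all 4 libraries, and COL1A2, PTPRC and CD3E had at most 1 read in any of them. The fibroblast markers summed to 37.5 and 64.9 CPM in MCF10A and 53.4 and 60.1 CPM in G12V cells, mostly from DCN (means of 41.8 and 50.8 CPM). The leukocyte markers summed to 30.4 and 49.1 CPM against 59.1 and 112.3 CPM, almost all from CD14 and CD68. In these bulk samples fewer cells of a type and less RNA per cell cannot be told apart.

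Epithelial cells line surfaces and cavities, hold to each other through junctions and keep an apical and a basal side with different membrane proteins. Transcription factors such as the Grainyhead-like and epithelial ETS proteins keep such genes on, and repressors such as ZEB1, ZEB2 and SNAI2, which bind E-box sequences, switch many of them off in an epithelial-mesenchymal transition (EMT). MicroRNAs of the miR-200 family and miR-205 are known to hold ZEB1 and ZEB2 low in epithelial cells.

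The silenced genes together had 29302 and 32489 reads in the MCF10A libraries and 170 and 149 reads in the G12V libraries. The median over genes and libraries was 261 reads in MCF10A and 2 reads in G12V cells. SDR42E1, ADD2, PHACTR3, FAM83F, NUDT11 and ARMCX3 had 0 reads in both G12V libraries. For a gene at 0 the level is only known to lie below that of 3 reads per library, an allowance for counting error alone. Against this limit FAM83F was at least 100.5-fold lower and NUDT11 at least 37.1-fold lower. Among all 53 genes the smallest ratio was that of CNTN3, 21.5-fold. Several genes lay close to the limits on either side. The genes nearest to the minimum in MCF10A were PHACTR3 with 101 and 332 reads, KCNJ15 with 238 and 102 and NUDT11 with 112 and 110, and just outside it lay BAIAP2L2 with 118 and 99, PRR15L with 99 and 129 and CAPN8 with 96 and 307. Nearest to the maximum in G12V cells were GRHL3 with 9 and 9 reads, AZGP1 with 9 and 6, CNTN3 with 5 and 9, ELF3 with 4 and 9 and MIR205HG with 9 and 1, and just outside it lay DENND2D with 11 and 10, FXYD3 with 11 and 7, PDGFD with 11 and 6 and GRIP1 with 2 and 11. The reverse limits, at most 10 reads in each MCF10A library and at least 100 in each G12V library, were met by 23 genes.

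**Figure D1:**
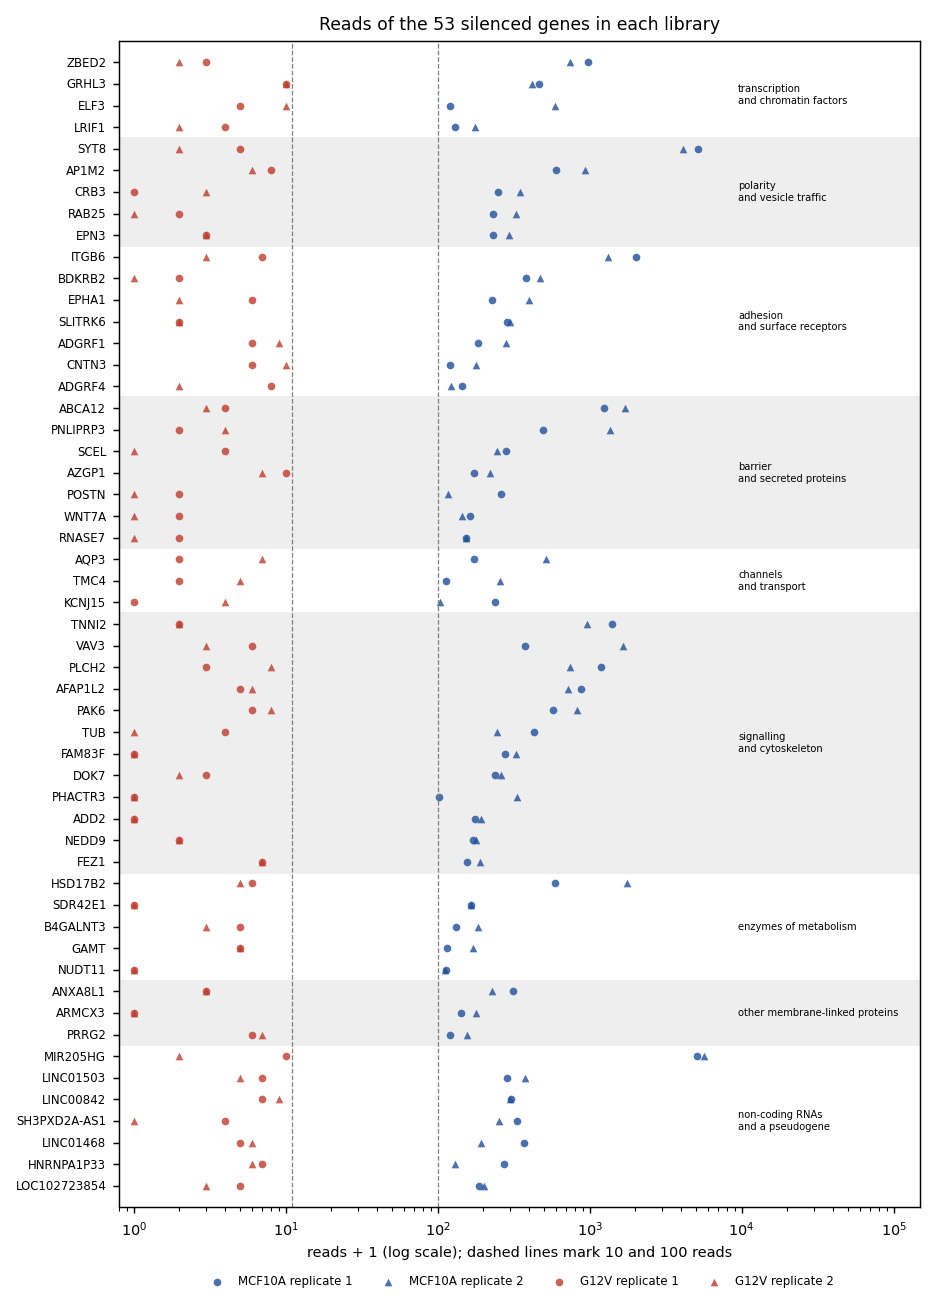
Reads plus 1 on a log axis of each silenced gene (rows, by functional group) in 2 MCF10A libraries (blue) and 2 G12V libraries (red), where circles are replicate 1 and triangles replicate 2. Blue points lie at or above 101 reads and red points at or below 9 reads, and the blue points of ELF3, VAV3 and PHACTR3 lie farthest apart.

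Transcription and chromatin factors made up 4 of the silenced genes. GRHL3, a Grainyhead-like factor of the epidermal barrier (hg19 chr1:24645812-24690970), had 461 and 418 reads in MCF10A and 9 in each G12V library. ELF3, an epithelial ETS factor, had 119 and 595 reads in MCF10A and 4 and 9 in G12V cells. The 2 MCF10A libraries differed 4.85-fold for ELF3 in CPM, the widest gap among the 53 genes. ZBED2, a BED-type zinc finger factor, had 970 and 745 reads in MCF10A and 2 and 1 in G12V cells. LRIF1, a nuclear protein that binds heterochromatin protein 1, had 129 and 176 reads in MCF10A and 3 and 1 in G12V cells.

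The group of polarity and vesicle traffic held some of the best known epithelial genes. CRB3, the Crumbs protein of the apical membrane, had 249 and 349 reads in MCF10A and 0 and 2 in G12V cells. RAB25, a small GTPase of apical recycling, had 229 and 325 reads in MCF10A and 1 and 0 in G12V cells. AP1M2 encodes the adaptor subunit that sorts proteins to the basolateral membrane of epithelia, and it had 599 and 928 reads in MCF10A and 7 and 5 in G12V cells, 130.4-fold lower. Its widely expressed counterpart AP1M1 had 1717 and 1713 reads in MCF10A and 2384 and 2381 in G12V cells and was not DE. EPN3, an epsin of clathrin-mediated endocytosis, had 231 and 294 reads in MCF10A and 2 in each G12V library. SYT8, a synaptotagmin, had 5194 and 4103 reads in MCF10A and 4 and 1 in G12V cells.

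The E-box CACCTG, the 6 letters bound by ZEB and SNAI proteins, stood on either strand (read there as CAGGTG) within 250 bases before and 50 bases after the annotated start of 22 of the 53 genes (41.5%). It stood in 22.1% of the windows of all 26255 genes with a window, in 20.5% of those of the 14375 tested genes and in 19.3% of those of genes with at least 100 reads in each MCF10A library. EPN3, of the group of polarity and vesicle traffic, held 0, while ANXA8L1, ELF3, FAM83F, GRHL3, LINC01468 and RNASE7 of other groups held 2 each. CRB3 held 6 E-boxes, the most among the silenced genes, AP1M2 held 3 and RAB25 and SYT8 held 2 each. The windows of these genes are shown 5′ to 3′ on the coding strand because they carry the E-boxes, which are in capitals, and come from the GRCh37 genome: CRB3 at chr19:6464010-6464309 (+), AP1M2 at chr19:10697942-10698241 (-), RAB25 at chr1:156030716-156031015 (+) and SYT8 at chr11:1855290-1855589 (+).
CRB3: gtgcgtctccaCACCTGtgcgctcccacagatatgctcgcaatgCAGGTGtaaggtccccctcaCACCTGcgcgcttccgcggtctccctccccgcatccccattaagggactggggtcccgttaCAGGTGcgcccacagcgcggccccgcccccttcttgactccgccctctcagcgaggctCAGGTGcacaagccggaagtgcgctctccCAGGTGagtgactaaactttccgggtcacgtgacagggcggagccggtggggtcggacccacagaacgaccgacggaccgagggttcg
AP1M2: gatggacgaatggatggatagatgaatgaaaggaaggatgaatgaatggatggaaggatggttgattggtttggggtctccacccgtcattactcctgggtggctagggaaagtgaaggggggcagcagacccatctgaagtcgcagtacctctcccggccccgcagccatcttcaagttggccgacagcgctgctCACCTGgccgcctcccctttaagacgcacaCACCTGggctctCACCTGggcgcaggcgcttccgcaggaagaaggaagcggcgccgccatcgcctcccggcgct
RAB25: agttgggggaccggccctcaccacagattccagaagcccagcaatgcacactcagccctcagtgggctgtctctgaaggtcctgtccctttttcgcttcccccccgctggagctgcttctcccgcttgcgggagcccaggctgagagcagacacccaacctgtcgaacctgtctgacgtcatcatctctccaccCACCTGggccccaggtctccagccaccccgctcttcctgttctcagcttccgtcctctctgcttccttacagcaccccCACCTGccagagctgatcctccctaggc
SYT8: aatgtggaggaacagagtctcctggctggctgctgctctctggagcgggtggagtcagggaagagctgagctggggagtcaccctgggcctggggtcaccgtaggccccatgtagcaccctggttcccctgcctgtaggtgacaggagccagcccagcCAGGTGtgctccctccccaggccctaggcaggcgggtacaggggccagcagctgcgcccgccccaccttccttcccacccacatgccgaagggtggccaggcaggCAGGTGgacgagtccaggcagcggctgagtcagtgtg
In CRB3 the E-boxes were spread over the window, while in AP1M2 they lay close together near its end. A match is a description of the letters, and binding was not measured in these files.

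Other features of the same windows were counted as well. The AP-1 motif TGANTCA stood in 7 of the 53 windows (13.2%) and in 5.12% of the windows of the tested genes. A p53 half-site stood in 5 windows (9.43%) and in 5.38% of the windows of the tested genes. The Grainyhead-like motif AACCGGTT stood in 0 of 53 windows and in 0.16% of those of the tested genes. The ratio of observed to expected CpG, which is high in CpG islands, had a median of 0.433 in the silenced genes and 0.804 in the tested genes. It was over 0.6 in 19 silenced genes (35.8%), in 75.4% of the tested genes and in 83.4% of genes with at least 100 reads in each MCF10A library. The median GC content was 58.7% in the silenced and 63.3% in the tested genes. The part of GC content and of expression level in the motif shares was not tested.

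**Figure D2:**
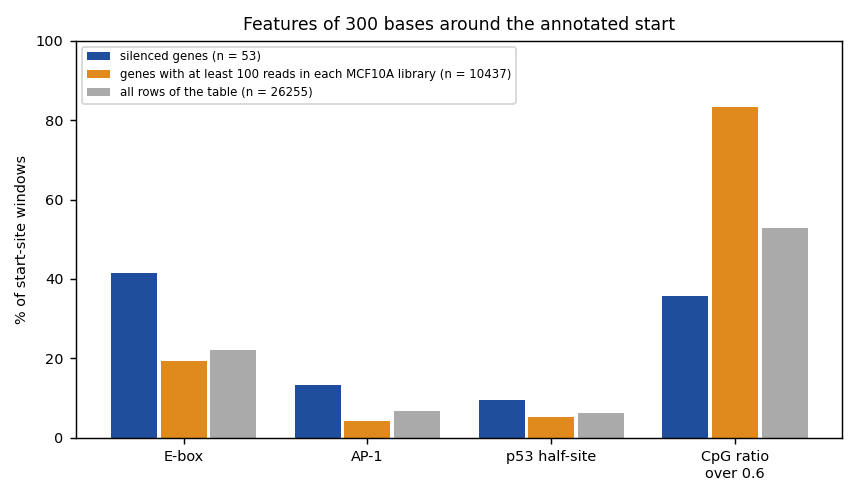
Percent of 300-base windows around the annotated start (vertical axis) with each feature, for the silenced genes (blue), genes with at least 100 reads in each MCF10A library (orange) and all genes (grey). The blue bar is the highest for the 3 motifs (41.5% for the E-box) and the lowest for a CpG ratio over 0.6 (35.8%).

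Adhesion and surface receptors made up 7 of the silenced genes. ITGB6, the integrin subunit that pairs with the αv chain, had 2028 and 1322 reads in MCF10A and 6 and 2 in G12V cells. BDKRB2, the bradykinin B2 receptor, had 378 and 471 reads in MCF10A and 1 and 0 in G12V cells. EPHA1, an ephrin receptor, had 227 and 401 reads in MCF10A and 5 and 1 in G12V cells. All 3 receive signals from outside the cell. SLITRK6, a leucine-rich repeat membrane protein, had 287 and 300 reads in MCF10A and 1 in each G12V library. ADGRF1, an adhesion G protein-coupled receptor, had 184 and 279 reads in MCF10A and 5 and 8 in G12V cells. Its relative ADGRF4, which had 143 and 122 reads in MCF10A and 7 and 1 in G12V cells, lies 656189 bases away on chr6 with 3 genes between them. CNTN3, a contactin of the immunoglobulin family, was the silenced gene with the smallest ratio.

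Barrier and secreted proteins made up 7 genes. ABCA12, which loads lipids into the lamellar granules of keratinocytes, had 1243 and 1699 reads in MCF10A and 3 and 2 in G12V cells. PNLIPRP3, a lipase-related protein, had 489 and 1369 reads in MCF10A and 1 and 3 in G12V cells. SCEL, a precursor of the cornified envelope, had 281 and 244 reads in MCF10A and 3 and 0 in G12V cells. These 3 genes belong to the barrier of stratified epithelia, like RNASE7, an antimicrobial ribonuclease of the skin with 153 reads in each MCF10A library and 1 and 0 in G12V cells. AZGP1, a secreted zinc-binding glycoprotein, had 172 and 220 reads in MCF10A and 9 and 6 in G12V cells. POSTN, or periostin, is a matrix protein better known from mesenchymal cells, and here it had 262 and 116 reads in MCF10A and 1 and 0 in G12V cells. WNT7A, a Wnt ligand, had 163 and 143 reads in MCF10A and 1 and 0 in G12V cells.

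Channels were few. AQP3, a channel for water and glycerol, had 173 and 514 reads in MCF10A and 1 and 6 in G12V cells. TMC4, a transmembrane channel-like protein, had 113 and 255 reads in MCF10A and 1 and 4 in G12V cells. In KCNJ15, an inward rectifier of potassium, the G12V libraries had 0 and 3 reads.

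The largest group, 12 genes, was that of signalling and the cytoskeleton. VAV3, a guanine nucleotide exchange factor, had 373 and 1647 reads in MCF10A and 5 and 2 in G12V cells. TNNI2, the fast skeletal troponin I, had 1406 and 961 reads in MCF10A and 1 in each G12V library. PLCH2, a phospholipase C, had 1191 and 741 reads in MCF10A and 2 and 7 in G12V cells. TNNI2, a gene known from muscle, thus had reads in the breast line. AFAP1L2, an adaptor that binds actin filaments, had 875 and 721 reads in MCF10A and 4 and 5 in G12V cells. PAK6, a p21-activated kinase, had 570 and 823 reads in MCF10A and 5 and 7 in G12V cells. ADD2, the β subunit of adducin at the membrane skeleton, had 175 and 191 reads in MCF10A, and FAM83F had 276 and 326. Both were at 0 in G12V cells, as was PHACTR3, a regulator of protein phosphatase 1 and actin. TUB, FEZ1, the scaffold protein NEDD9 and DOK7, an adaptor of the neuromuscular junction, completed the group with 154 to 432 reads in MCF10A and 0 to 6 in G12V cells.

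Among 5 enzymes, HSD17B2, which oxidizes estradiol to estrone, had 592 and 1750 reads in MCF10A and 5 and 4 in G12V cells. SDR42E1, its neighbour on chr16 and a member of the same dehydrogenase superfamily, had 166 reads in each MCF10A library and 0 in each G12V library. B4GALNT3, a glycosyltransferase, had 131 and 184 reads in MCF10A and 4 and 2 in G12V cells. GAMT, the last enzyme of creatine synthesis, had 114 and 169 reads in MCF10A and 4 in each G12V library. NUDT11 encodes a phosphatase of inositol pyrophosphates on chrX. Its near copy NUDT10 had 1 and 4 reads in MCF10A and 0 in both G12V libraries, so the near copy held few reads in any library.

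A further 3 proteins are linked to membranes. ANXA8L1, an annexin, had 312 and 228 reads in MCF10A and 2 in each G12V library. It is a near copy of ANXA8, which had 55 and 49 reads in MCF10A and 0 in both G12V libraries, and how reads were split between the copies is uncertain. ARMCX3, a protein of the mitochondrial outer membrane on chrX, had 142 and 179 reads in MCF10A, while its relatives ARMCX1, ARMCX2 and ARMCX6 had at most 2 reads in any library. PRRG2, a Gla-domain membrane protein, had 120 and 156 reads in MCF10A and 5 and 6 in G12V cells.

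The silenced gene with the most reads, not scaled to gene length, was a non-coding one. MIR205HG, the host transcript of miR-205 (hg19 chr1:209602168-209605892), had 5076 and 5665 reads in MCF10A and 9 and 1 in G12V cells. The row of MIR205 itself, which lies within the host, had 68 and 44 reads in MCF10A and 0 in both G12V libraries. Poly(A) libraries read the host and its precursor, and the mature microRNA was not measured. The mature sequences are shown because the seed of the 5p arm, bases 2 to 8 in capitals, was used to search for matches. They come from RefSeq on GRCh38.p14, where the 5p arm lies at chr1:209432166-209432187 and the 3p arm at chr1:209432203-209432223, both on the plus strand.
hsa-miR-205-5p: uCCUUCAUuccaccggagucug
hsa-miR-205-3p: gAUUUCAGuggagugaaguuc
The 3′ UTR of ZEB1 in the GRCh37 annotation, 2543 bases long, held 1 match to the 5p seed, at chr10:31816996-31817017 (+), printed here with the match in capitals: atatgtggtaacatATGAAGGa. That of ZEB2, 5373 bases long, held 0. Only exact matches to bases 2 to 8 were searched, and shorter or partial sites were not looked for in either 3′ UTR. ZEB1 had 150 and 107 reads in MCF10A and 887 and 1195 in G12V cells, and ZEB2 had 122 and 152 against 533 and 568. Whether the seed match bears on the level of ZEB1 was not tested.

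The other non-coding genes were LINC01503 (284 and 376 reads in MCF10A), SH3PXD2A-AS1 (330 and 254), LINC01468 (367 and 192), LOC102723854 (187 and 200), LINC00842 (301 and 297) and the pseudogene HNRNPA1P33 (274 and 130), with 0 to 8 reads in G12V cells. HNRNPA1P33 lies within LINC00842 on the same strand, so their reads are not independent. SH3PXD2A-AS1 lies opposite to SH3PXD2A, which had 1741 and 2415 reads in MCF10A and 973 and 883 in G12V cells. Since the kit does not mark strand, reads from bases that an antisense gene shares with its partner cannot be assigned by strand.

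Replicates of MCF10A cells did not always hold like levels of the silenced genes. The CPM of both libraries lay more than 2-fold apart in 10 of 53 genes (18.9%). The share was 3.12% of the 10435 genes with at least 100 reads in each MCF10A library, the silenced genes included, and 3.4% of those with 100 to 1000 reads. Replicate 2 was the higher in 7 of the 10 and replicate 1 in 3. After ELF3, the widest gaps were 4.28-fold in VAV3, 3.19-fold in PHACTR3, 2.88-fold in AQP3 and 2.87-fold in HSD17B2. The numbers are a description, as the limits that chose the genes used these libraries.

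The parental cells of the Nutlin-3a experiment were not used to choose the genes, and 51 of the 53 were found in that table, 47 by symbol, 2 by an older symbol and 2 by coordinates. SH3PXD2A-AS1 and LINC01503 were not matched. Since the tables were counted on different annotations and normalized separately, levels set across them are a description with no test. The limits that chose the genes used the untreated MCF10A libraries, so comparisons with those libraries are not independent of the choice. In DMSO-treated MCF10A cells the median silenced gene stood at 51.1% of its CPM in the untreated MCF10A cells. The median stood at 101.2% over the 10219 genes with at least 100 reads in each MCF10A library that were matched by symbol, silenced genes included. In the DMSO libraries 40 of the 51 genes (78.4%) were lower, against 48.9% of these 10219 genes. In all, 9 of the 51 (17.6%) lay under 1 CPM in DMSO, against 1.27% of the 10219 genes and 2.14% of those with 100 to 1000 reads. Matched by symbol alone, 7 of 47 genes (14.9%) lay under 1 CPM.

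The 9 genes under 1 CPM in these parental cells came from 8 of the 9 functional groups. ARMCX3 had 0 reads in each of the 3 DMSO libraries and NUDT11 had 1, 0 and 0. ELF3 had 4, 0 and 1 reads, and LOC102723854 had 0, 0 and 3. RAB25 had 32, 2 and 2 reads, so that 1 library held most of them. PHACTR3 had 14, 1 and 7 reads, ADGRF1 16, 2 and 4, FEZ1 3, 8 and 5 and AZGP1 14, 9 and 14. These genes thus had few reads in the parental libraries of one table and at least 100 in those of the other. ARMCX3 had 0 reads in all 6 libraries of the Nutlin-3a table. Whether annotation, counting or the cultures gave these low values was not tested. At the other end, KCNJ15 stood at 538.1% of its level in the untreated cells, with 840, 843 and 435 reads, RNASE7 at 345.3%, with 408, 402 and 406 reads, and HNRNPA1P33 at 305.7%, with 454, 450 and 525 reads. MIR205HG, with 3143, 2947 and 3430 reads, stood at 77.0%, CRB3 at 90.5%, AP1M2 at 94.1%, ABCA12 at 102.9% and ITGB6 at 114.5%. CRB3, AP1M2, ABCA12 and ITGB6 thus stood near their level in the untreated cells, while RAB25 and ELF3 stood far below it.

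**Figure D3:**
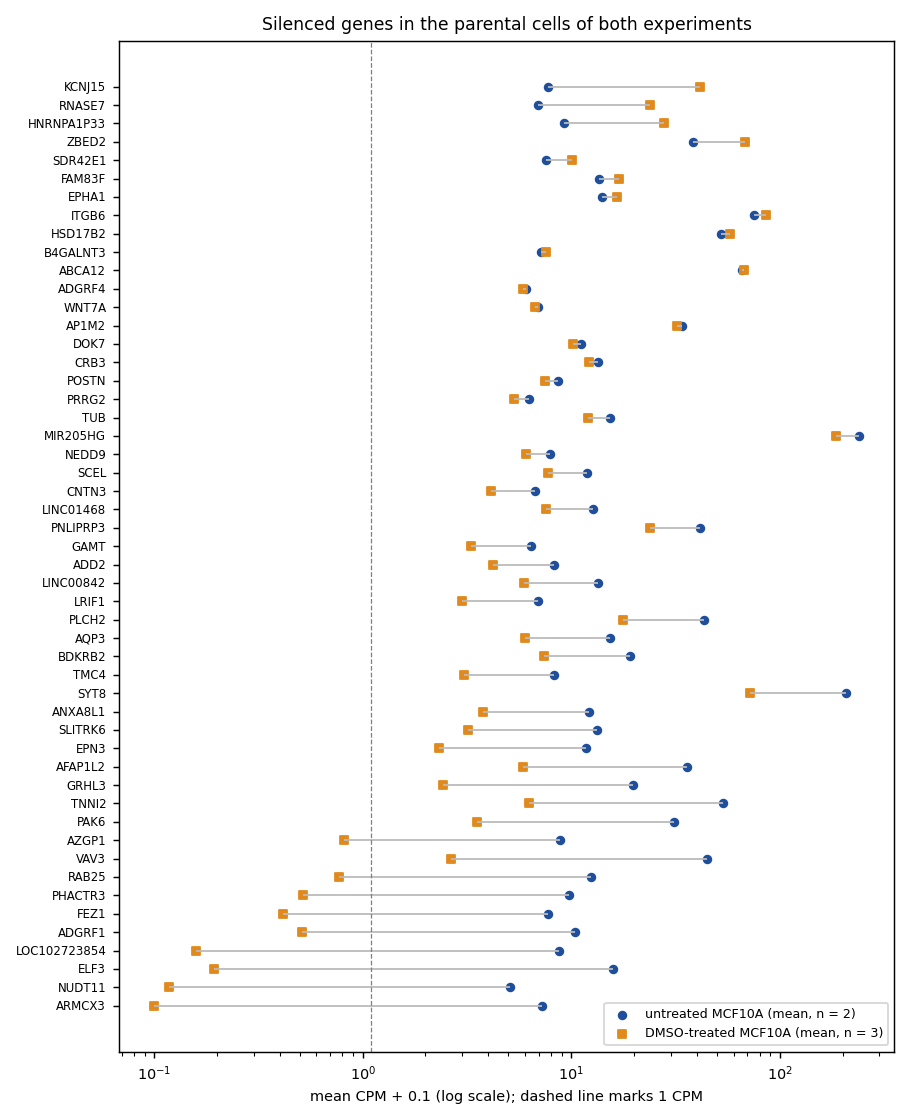
Mean CPM plus 0.1 on a log axis of 51 silenced genes (rows) in 2 untreated MCF10A libraries (blue circles) and 3 DMSO-treated MCF10A libraries (orange squares), which were counted and normalized separately. Under 1 CPM (dashed line) lie 9 orange squares, and most squares lie left of their circle.

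Nutlin-3a tests whether p53 activity moves these genes in parental cells within 4 h. As a check of the treatment, 9 of 12 p53 targets were DE and higher after Nutlin-3a, with log2 fold changes of 2.16 for CDKN1A (SE 0.13, adjusted p = 0.000516) and 2.54 for MDM2 (SE 0.18, adjusted p = 0.00133). Of the silenced genes, 43 had enough reads to be tested and 8 of those matched did not. None of the 43 was DE by edgeR's quasi-likelihood test. Of the 13529 tested genes 0.17% were DE, 0.155% higher and 0.0148% lower, so 0 of 43 lies near the share over all genes. The lowest adjusted p among the 43 was 0.757, and 2 genes, RNASE7 and ABCA12, had an unadjusted p under 0.05 (4.65% of them, against 3.42% of all tested genes). DESeq2 and edgeR's exact test also gave 0 DE genes among them, and their shares over all tested genes are not reported here. With the replicate number as a block, 0 were DE, 12 of the 43 (27.9%) had an unadjusted p under 0.05, against 11.7% of all tested genes, and the lowest adjusted p was 0.051 for GRHL3, where 1.22% of the tested genes were DE, 0.702% higher and 0.517% lower.

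In sign, 25 of the 43 genes were higher and 18 lower after Nutlin-3a, with a median log2 fold change of 0.034 against 0.007 over all tested genes. Without Nutlin-3a replicate 3 this median was -0.063, and without replicate 2 it was 0.11. The median absolute log2 fold change was 0.146 against 0.101. GRHL3 had 38, 11 and 72 reads with DMSO and 96, 25 and 91 with Nutlin-3a, a log2 fold change of 0.94 (SE 0.65). EPN3 had 62, 17 and 37 reads with DMSO and 75, 33 and 88 with Nutlin-3a, a log2 fold change of 0.90 (SE 0.48). In CPM both genes were higher after Nutlin-3a in 3 of 3 pairs of the same replicate number, while the groups overlapped. ABCA12 had 886, 1134 and 1443 reads with DMSO and 1687, 1436 and 1363 with Nutlin-3a, a log2 fold change of 0.48 (SE 0.19). RNASE7 had 408, 402 and 406 reads with DMSO and 570, 509 and 425 with Nutlin-3a, a log2 fold change of 0.42 (SE 0.12). ABCA12 and RNASE7 were also higher in 3 of 3 pairs in CPM. The share of all tested genes with 3 pairs in the same direction was not counted. These 4 genes had adjusted p values from 0.757 to 1.00 without the block. With it, their log2 fold changes were 0.99 for GRHL3 (SE 0.23, adjusted p = 0.051), 0.91 for EPN3 (SE 0.22, adjusted p = 0.0723), 0.51 for ABCA12 (SE 0.14, adjusted p = 0.129) and 0.41 for RNASE7 (SE 0.10, adjusted p = 0.0723). The lowest values were those of SLITRK6, with 61, 67 and 31 reads against 36, 55 and 16 and a log2 fold change of -0.47 (SE 0.44), KCNJ15, with 840, 843 and 435 reads against 691, 583 and 261 and a log2 fold change of -0.36 (SE 0.35), and CNTN3, with 65, 80 and 61 reads against 50, 51 and 50 and a log2 fold change of -0.34 (SE 0.22). All 3 were lower in 3 of 3 pairs in CPM, and with the block they had log2 fold changes of -0.50 (SE 0.20, adjusted p = 0.354), -0.39 (SE 0.10, adjusted p = 0.0903) and -0.33 (SE 0.18, adjusted p = 0.541). The replicate numbers pair these libraries, and none of the 7 genes was DE in either fit. MIR205HG, with 2593, 2807 and 3726 reads after Nutlin-3a, had a log2 fold change of 0.06 (SE 0.17), and AP1M2 one of 0.00 (SE 0.21).

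**Figure D4:**
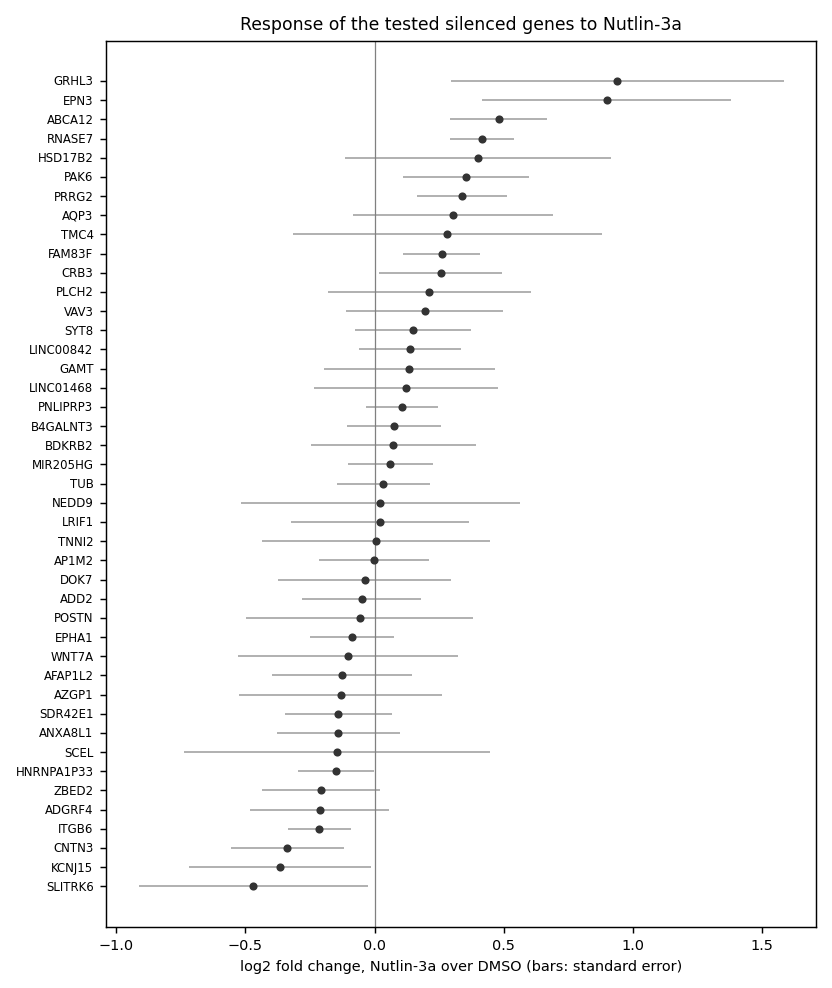
Log2 fold change between 3 Nutlin-3a and 3 DMSO libraries (horizontal axis, points) with its standard error (bars) for the 43 tested silenced genes (rows, in order of the change). The points run from -0.47 in SLITRK6 to 0.94 in GRHL3, and none was DE.

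The spread between replicates was wide for the silenced genes in this experiment. In 13 of the 43 tested genes (30.2%) the highest DMSO library was more than 2-fold above the lowest, against 9.44% of all tested genes. Replicate 2 was the lowest of both treatments in 15 genes (34.9%, against 13.8% of all tested genes) and the highest of both in 8 (18.6%, against 14.4%). SCEL had 161, 38 and 199 reads with DMSO and 136, 43 and 147 with Nutlin-3a. WNT7A had 154, 56 and 136 reads with DMSO and 144, 52 and 98 with Nutlin-3a. The barrier gene and the Wnt ligand were thus low in replicate 2 of both treatments. NEDD9 had 68, 177 and 56 reads with DMSO and 72, 164 and 53 with Nutlin-3a, and HSD17B2 had 580, 1501 and 847 against 508, 2098 and 1026, both highest in replicate 2.

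Neighbouring genes ask whether the loss stopped at the silenced gene. For each silenced gene the nearest tested gene on either side that was not itself silenced was taken, which gave 100 neighbours. Between MCF10A and G12V cells 5.95% of the 14376 tested genes were DE and lower and 5.01% DE and higher. Leaving out the silenced genes, as for the neighbours, the shares were 5.60% and 5.03% of 14323 tested genes. Among the 100 neighbours 15 (15.0%) were lower and 3 (3.0%) higher. Within 100 kb, 12 of 56 neighbours (21.4%) were lower and 2 higher, and beyond 100 kb 3 of 45 (6.67%) were lower and 1 higher, with 1 neighbour in both classes as it flanks more than 1 silenced gene. Leaving out neighbours that overlap a silenced gene or are its copy, 9 of 89 (10.1%) were lower, and 6 of 45 (13.3%) within 100 kb. Without MCF10A replicate 1 no neighbour was DE, and neither was any list gene below.

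The clearest flanks were those of DOK7 on chr4, where both neighbours were lower. RGS12, a regulator of G protein signalling that lies 23392 bases away, had 1125 and 1638 reads in MCF10A and 175 and 129 in G12V cells (log2 fold change -3.22, SE 0.29, adjusted p = 0.00304). LRPAP1, a chaperone of lipoprotein receptors 2123 bases away, had 2721 and 2831 reads against 1148 and 1032 (log2 fold change -1.39, SE 0.17, adjusted p = 0.00689). Next to BDKRB2, at a distance of 11880 bases, the bradykinin B1 receptor gene BDKRB1 had 28 and 26 reads in MCF10A and 3 and 2 in G12V cells (log2 fold change -3.40, SE 0.52, adjusted p = 0.0134). Both bradykinin receptors, which lie side by side on chr14, were thus low in G12V cells. LOC100130899, 2292 bases from FAM83F and on its strand, had 219 and 273 reads against 15 and 10 (log2 fold change -4.32, SE 0.39, adjusted p = 0.00306).

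CTSD, the lysosomal protease cathepsin D, lies 70317 bases from SYT8 and had 9049 and 14167 reads in MCF10A and 4061 and 5535 in G12V cells (log2 fold change -1.30, SE 0.30, adjusted p = 0.047). SLC44A2, a choline transporter-like gene 15129 bases from AP1M2, had 581 and 354 reads against 137 and 191 (log2 fold change -1.55, SE 0.36, adjusted p = 0.048). For CTSD and SLC44A2 the calls were near the threshold. Without a filter on low counts the adjusted p was 0.0545 for CTSD and 0.0549 for SLC44A2, and CTSD was not DE without MCF10A replicate 2 or without G12V replicate 1 either. RIC3, NDRG2, DENND1C and SH3PXD2A were lower too but overlap TUB, RNASE7, CRB3 and SH3PXD2A-AS1 on the opposite strand. Reads from bases shared with the silenced gene cannot be assigned by strand. DENND1C had 81 and 161 reads in MCF10A and 1 and 2 in G12V cells, and NDRG2 had 52 and 63 against 0 and 1. Beyond 100 kb IFNLR1 (132046 bases from GRHL3), ATP6V1B1 (168150 bases from ADD2) and ZNF488 (592048 bases from ANXA8L1) were lower as well. Not every overlapping partner was low. STPG1, opposite to GRHL3, had 294 and 283 reads in MCF10A and 303 and 425 in G12V cells, and ZYX, opposite to EPHA1, had 6646 and 7348 against 5010 and 6088.

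In G12V cells 3 neighbours were higher. NTNG1, the netrin-like gene 89306 bases from VAV3, had 5 and 2 reads in MCF10A and 32 and 52 in G12V cells (log2 fold change 3.51, SE 0.62, adjusted p = 0.02). RBMS1, an RNA-binding protein gene 71837 bases from ITGB6, had 1578 and 1297 reads against 3415 and 3608 (log2 fold change 1.25, SE 0.20, adjusted p = 0.014). SLITRK5, the relative of SLITRK6 at a distance of 1951386 bases on chr13, had 119 and 118 reads against 458 and 542 (log2 fold change 2.04, SE 0.26, adjusted p = 0.00773). SLITRK6 and SLITRK5 thus had opposite patterns in the same libraries.

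**Figure D5:**
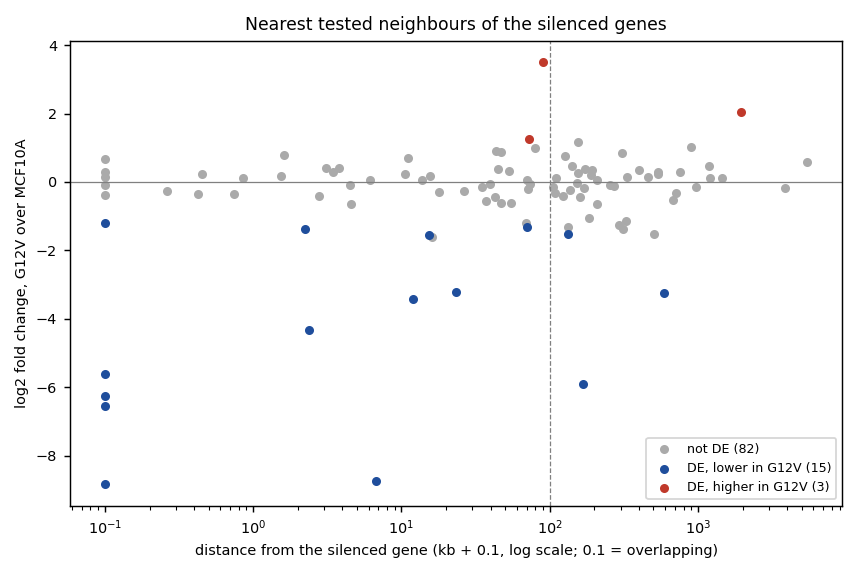
Log2 fold change between G12V and MCF10A cells (vertical axis) of 100 neighbours against their distance from the silenced gene in kb plus 0.1 (horizontal log axis, dashed line at 100 kb), each drawn once. The 15 DE and lower neighbours (blue) lie mostly left of the dashed line and 3 neighbours are DE and higher (red).

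Some silenced genes were direct neighbours of each other, apart from the overlap in LINC00842. SYT8 and TNNI2 follow each other on the same strand of chr11 with 1481 bases between them, and both held at least 961 reads in each MCF10A library. SDR42E1 and HSD17B2 point away from each other on chr16 with 23764 bases between them. TNNI2 had 197, 70 and 56 reads with DMSO and SYT8 had 1811, 931 and 1000, so the first library was the highest for both genes of that pair.

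Genes of the same pathways that were not silenced give the surroundings of the set. Of 7 other tested epithelial transcription factors 5 were DE and lower in G12V cells. OVOL2, a repressor of EMT, had 105 and 94 reads against 8 and 5 (log2 fold change -3.95, SE 0.44, adjusted p = 0.00552), and so missed the limit on MCF10A reads in 1 library. EHF, KLF4, KLF5 and TFAP2A were lower, with log2 fold changes of -1.89, -1.27, -1.51 and -1.07. GRHL1 and TFAP2C were not DE. Without MCF10A replicate 2 the count of lower factors was 3. Unlike the silenced GRHL3 and ELF3, the genes EHF, KLF4, KLF5 and TFAP2A kept reads in G12V cells, from 89 in EHF to 2159 in KLF5.

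Of 8 tested EMT transcription factors 2 were DE and higher and 1 lower. ZEB1 rose by 2.98 on the log2 scale (SE 0.31, adjusted p = 0.00447) and ZEB2 by 1.97 (SE 0.25, adjusted p = 0.0078). SNAI2, with 1206 and 1686 reads in MCF10A and 240 and 285 in G12V cells, was lower (log2 fold change -2.49, SE 0.26, adjusted p = 0.0043). The E-box factors of this list thus moved in both directions.

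Of 17 other tested genes of polarity and apical trafficking 4 were DE and lower, which were LLGL2, RAB17, MYO5B and MAL2, and none was higher. MAL2, a protein of apical transcytosis, had 8781 and 7661 reads in MCF10A and 1378 and 1770 in G12V cells (log2 fold change -2.42, SE 0.24, adjusted p = 0.0038). PARD3, PRKCI, SCRIB and DLG1, general polarity genes, were not DE, with log2 fold changes of -0.41, -0.39, -0.21 and -0.05. INADL, PRKCZ and PARD6B were not DE either, at -1.23, -0.95 and -0.77. Above 0, and not DE, were MPP5, RAB11A, RAB11FIP1, AP1M1 and STX3, and the median of the 17 genes was -0.41. Of 27 other tested genes of epithelial adhesion and the cell surface 20 were lower and none higher, with a median log2 fold change of -2.34. FAT2, with 3055 and 3890 reads in MCF10A and 9 and 12 in G12V cells, and ST14, with 5218 and 5779 against 122 and 130, were among them. Of 14 other tested genes of the epidermal barrier 7 were lower and 1, the lipoxygenase ALOX12B with 2 and 2 reads against 11 and 14, was higher. ALOX12B was not DE without a filter on low counts, nor without MCF10A replicate 2 or G12V replicate 2. PRSS8, with 649 and 776 reads against 6 and 14, missed the limits by its second G12V library. In each of these lists the members that belong to the silenced genes were left out of the count, and 0 of the listed genes were DE after Nutlin-3a apart from the p53 targets.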

How the data were processed

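RNA-seq libraries of MCF10A and G12V cells (2 each) and of MCF10A cells with DMSO or Nutlin-3a (3 each) were analysed, with groups from the sample titles and treatments. The authors prepared poly(A) RNA with a kit that does not mark strand, aligned the reads with TopHat to hg19, made gene counts with HTSeq and deposited these raw read counts in 2 tables on different annotations, whose versions and strand setting are not given in the sources used here. From these counts, fits were made with edgeR 4.0.16 on limma 3.58.1 in R 4.3.3 for each table apart: filterByExpr at its defaults, TMM factors, the quasi-likelihood F-test and Benjamini-Hochberg adjustment over all tested genes. A gene was DE at an adjusted p under 0.05 with a log2 fold change beyond 0.5 in either direction (prior count 0.125). CPM use TMM-scaled library sizes, and SE is the standard error of the log2 fold change implied by the F statistic. Alternatives were other factors and filters, DESeq2 1.42.0, edgeR's exact test, the replicate number as a block and the omission of each library. The fits were tested on simulated counts. P-values measure the spread between these libraries only.

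The silenced genes and all gene lists were chosen with earlier results of these data known. Named genes are the 5 with the most MCF10A reads in each functional group (groups assigned by hand), those at 0 in G12V cells, the 3 nearest to each limit with ties, the 3 largest changes after Nutlin-3a in each direction, adjoining genes and the 5 with the widest MCF10A gaps, with DE neighbours within 100 kb and genes of the lists. SLITRK5, STPG1 and ZYX were named after their values were seen, as were WNT7A, SCEL, NEDD9 and HSD17B2 for their replicate pattern. In the Nutlin-3a experiment the replicate numbers pair the libraries: after removal of group means, libraries of 1 number correlated at 0.624, 0.603 and 0.639, and other pairs at -0.474 to -0.191. The RefSeq promoter table held 38 of the 53 genes (71.7%), too few for the main count, so windows of 300 bases at the start sites of the count table were read from GRCh37. The RefSeq promoters served only as an alternative for the E-box share. There were 28 symbols turned into dates in either table, which were kept in the fits only. Chromatin assays were not analysed here. Some genes of the lists are not reported here.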

Additional observations from a re-analysis of the deposited data

How the results depend on the processing

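The set itself depends on its limits: 81 genes passed with at most 20 reads in each G12V library, 28 with at least 200 and 95 with at least 50 reads in each MCF10A library. The Nutlin-3a result, 0 DE genes among the silenced, was the same under each alternative run. With 0.17% of the 13529 tested genes DE in the main fit, this count lies near the share over all genes. The median log2 fold change after Nutlin-3a ranged from -0.063 to 0.11 when 1 library was left out. With the replicate number as a block in the MCF10A and G12V fit, where the numbers are not known to pair the libraries (2 pairs, correlation 0.494), 23 neighbours were lower and 10 higher, against 15 and 3, 2 EMT factors and 8 polarity genes were lower, against 1 and 4, and 3 barrier genes were higher. With the nearest 2 genes on each side, 23 neighbours were lower and 8 higher, and 9 were lower without overlaps and copies, an alternative chosen after seeing the data. The higher barrier gene was lost without a filter and with more than 1 CPM in at least 2 libraries (0), and the exact test gave 2.

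Leaving out 1 library gave 0 to 17 lower and 0 to 5 higher neighbours, with 5 higher without G12V replicate 1. With either MCF10A library left out, the lone one was assumed to vary like the G12V libraries. Without MCF10A replicate 1 no call remained in the neighbours or the lists. Why this fit differed from that without replicate 2, which rests on the same assumption, was not tested. Over the omission of each library, 0 to 5 epithelial factors, 0 to 1 EMT factor, 0 to 6 polarity, 0 to 23 adhesion and 0 to 8 barrier genes were lower, and 0 to 3 EMT factors and 0 to 1 barrier gene were higher. Of 17 single genes followed through 218 refits, 204 kept their direction and side of the threshold, 14 fell short of it and 0 reversed. The genes followed after Nutlin-3a were not DE in the main fit and kept their side by staying so. All refits that fell short were of genes DE in the MCF10A and G12V fit. The E-box stood in 20.5% of the windows of tested genes and 20.6% of RefSeq promoters, against 22.1% of all windows, and in 39.5% of the RefSeq promoters of the silenced genes. With 2 libraries in each group, few reads in G12V cells and no strand, levels below 3 reads and reads shared by overlapping genes cannot be resolved.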
